A study of Mus musculus with 8 samples.

Results

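Chromatin accessibility was examined around 4 genes, Tfcp2l1, Tbx3, Prdm14 and Sall4, which encode transcription factors of the mouse embryonic stem cell network. A peak belonged to a gene when its centre lay inside the GRCm38 span of the gene or within 50 kb of that span. By this rule 103 of the 134407 peaks of the series were taken, 32 at Tfcp2l1, 24 at Tbx3, 22 at Prdm14 and 25 at Sall4. The cells were wild-type E14 mouse embryonic stem cells, an established line, grown on gelatin in medium with serum and leukaemia inhibitory factor (LIF). In the paused group the medium also held INK128, which inhibits the mTOR kinase, at 200 nM for 24 hours, and the control group was not treated. Each group had 4 libraries of 50000 live cells. The labels do not say whether the replicates were separate cultures, so that the p-values measure only the spread between these libraries.

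ATAC-seq uses the Tn5 transposase to place sequencing adapters into DNA that is not covered by nucleosomes, so that open promoters and enhancers gather reads. Tfcp2l1 is a CP2-family factor that acts downstream of LIF and Stat3 in self-renewal. Tbx3 is a T-box factor that supports the naive state and also takes part in early endoderm formation. Prdm14 is a zinc finger protein that holds down FGF receptor signalling and the de novo DNA methyltransferases, and it is needed for primordial germ cells. Sall4 is a spalt-family zinc finger protein that binds AT-rich DNA and works with Pou5f1 and the NuRD corepressor. Stem cells treated with an mTOR inhibitor enter a slowly growing state that resembles the diapause of the early embryo.

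Values are reads per peak divided by 1 factor per library. The libraries held 4434037 to 21161767 reads in peaks, and the deepest was control replicate 1. A read was worth a value of 0.346 in that library and of 1.15 to 1.69 in the other 7. Over all 127402 peaks whose mean value reached 10, 13.9% were called by limma-trend on log2(value + 1) at a Benjamini-Hochberg adjusted p under 0.05, 11.0% higher and 2.91% lower in paused libraries. Their median log2 change was 0.10. After scaling by TMM it was 0.00. The log2 changes of peaks below are not relative to this shift unless stated. Of 8 stem cell marker genes, 6 had a peak within 1 kb of an end of the gene, and the summed value of these peaks was 603 to 691 in control and 756 to 818 in paused libraries. Of these peaks only that of Zfp42 was called (higher, adjusted p = 0.0117 by limma-trend). The sum over all peaks of the series was also higher in paused libraries, by 11.5%. Pou5f1 and Tdgf1 were the 2 markers without such a peak. Peaks also lay at the ends of genes of other lineages, at 4 of 5 fibroblast, 2 of 4 endoderm and 3 of 3 mesoderm markers. Their sums were 293 to 401 against 374 to 424 for fibroblast, 190.1 to 220.1 against 205 to 236 for endoderm, and 301 to 361 against 289 to 377 for mesoderm. For trophoblast (2 of 3) and neural (1 of 2) markers the sums stayed at or under 47.4 in every library. Their part in the results below was not tested. Accessibility at a gene end does not measure its expression.

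For 1 of the 4 genes, Tfcp2l1, a promoter window was matched in the RefSeq table of build GRCm38.p6. It is shown because the strongest peak of the locus overlaps it. The window (chr1:118627695-118627994, plus strand) runs from 250 bases before to 50 bases after the annotated start, and the peak chr1:118627798-118627998 begins at base 104 and shares 197 bases with it. This annotated start is chr1:118627945, whereas the gene span begins at chr1:118627923. A match to TATAAA begins 28 bases before the annotated start and lies nearer to the beginning of the span. The match, searched for after the sequence was seen, is marked by capitals:

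Tfcp2l1 promoter: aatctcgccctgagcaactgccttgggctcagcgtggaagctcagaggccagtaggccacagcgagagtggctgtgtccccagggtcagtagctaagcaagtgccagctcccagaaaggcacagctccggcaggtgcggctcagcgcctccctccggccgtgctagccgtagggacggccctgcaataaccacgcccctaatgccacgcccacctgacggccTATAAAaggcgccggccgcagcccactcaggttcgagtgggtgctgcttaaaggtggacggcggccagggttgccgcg

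The window had a GC content of 65.3% and 21 CpG dinucleotides, against medians of 52.7% and 7 over 32851 promoter windows of the same length. TATAAA was found on either strand in 13.6% of those windows. No match in the Tfcp2l1 window was found on either strand for the octamer ATTTGCAT (in 1.74% of all windows), the Esrrb motif TNAAGGTCA (1.28%), the Klf motif GGGTGTGG (3.56%), the T-box motif AGGTGTGA (1.28%), the Prdm14 motif GGTCTCTAA (0.256%) or the Stat motif TTCNNNGAA (8.30%). The Tfcp2l1 motif, a pair of CCAG half-sites 6 bases apart, was also without a match (3.44% of all windows).

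The first comparison was of paused with control cells, peak by peak along each locus. Of the 95 peaks of the 4 loci that passed the filter on low values, 14 rose and 3 fell. Among all tested peaks 11.0% rose and 2.91% fell, so that both shares lay close to the background. At Tfcp2l1 5 of 26 tested peaks rose and none fell; the 6 other peaks there had mean values under 10. At Tbx3 5 of 24 rose and 1 fell. At Prdm14 3 of 20 rose and 2 fell, with 2 peaks under the filter. At Sall4 1 of 25 rose and none fell, although 1 peak fell there after TMM rescaling. The median log2 change was 0.21 at Tfcp2l1, 0.17 at Tbx3, -0.06 at Prdm14 and -0.09 at Sall4, beside 0.10 over all peaks. The split of calls depended on the scaling, at the 4 loci and over the series. In edgeR with TMM, 9 of 90 tested peaks of the loci were called higher and 9 lower, beside 7.1% and 5.69% of all peaks in that fit. In limma-trend after TMM rescaling, 8 of 95 were called higher and 4 lower, beside 5.99% and 4.15% of all peaks. After loess correction the counts were again 8 and 4, beside 5.1% and 3.5%. Without paused replicate 4, 8 peaks were called higher (8963 over all peaks, in place of 13958), and the calls at Tbx3 went from 6 to 2. Without control replicate 3, the calls at Prdm14 went from 5 to 3 (13142 over all peaks, in place of 17660). The authors' deposited table lists 15 of the 103 peaks as higher and 2 as lower at an FDR under 0.05, beside 9.19% and 1.80% of all peaks in that table.

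**Figure D1:**
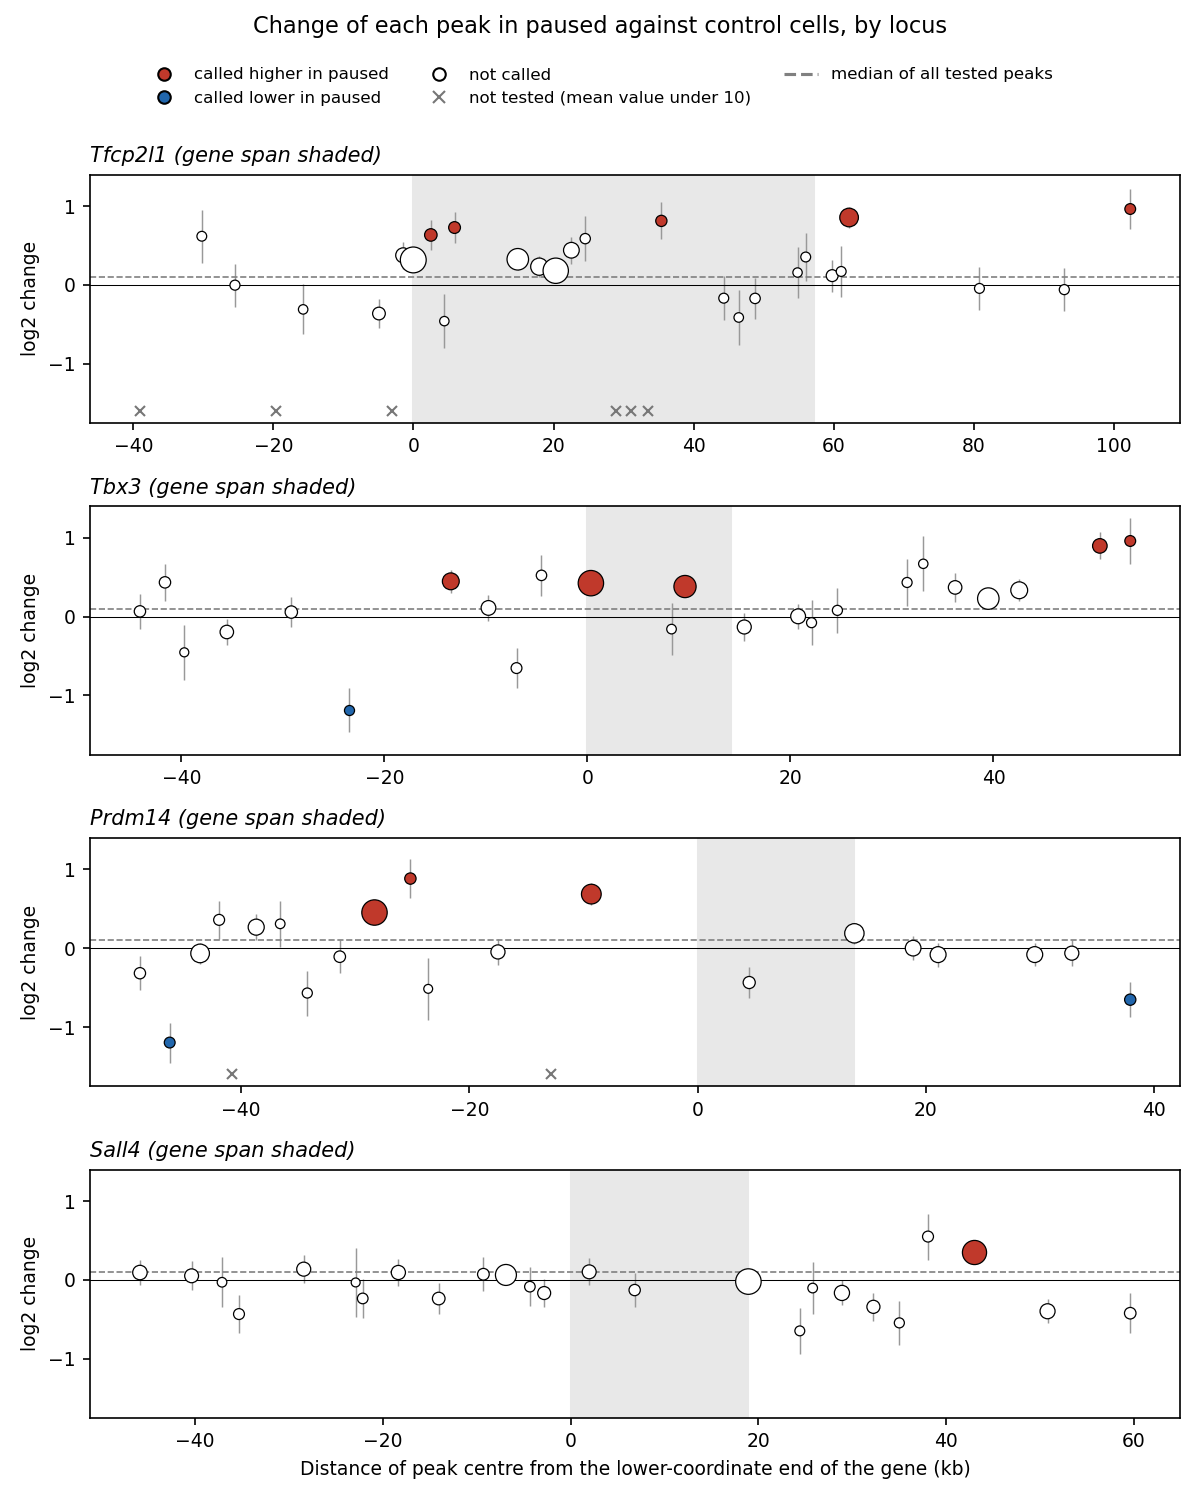
Log2 change (paused against control, with SE) of each tested peak against its distance in kb from the lower-coordinate end of the gene; point area grows with the mean value, red and blue mark peaks called higher and lower, and crosses at the foot mark the position of peaks that were not tested. Rises at Tfcp2l1 lie inside and above the gene, the 3 rises at Prdm14 lie below it, and Sall4 has 1 called peak.

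The peaks at the gene ends are the nearest to promoters that these data offer. Each gene had 1 peak within 1 kb of an end, and it was the strongest of its locus at Tfcp2l1, Tbx3 and Sall4. The table of genes gives no strand, and an annotated start was at hand for Tfcp2l1 alone. At Tbx3 the peak chr5:119670776-119670976, 342 bp inside the gene and also inside the lncRNA gene Tbx3os1, had values of 215, 186, 198 and 178 in control and 226, 285, 248 and 286 in paused replicates 1 to 4. All 4 paused values were above all control values, and the peak rose 1.35-fold (log2 change 0.42, SE 0.11, adjusted p = 0.00936 by limma-trend; 0.32 above the median of all peaks). It lost its call in edgeR with TMM, in DESeq2, under TMM rescaling, under loess correction and without paused replicate 4, with a log2 change of 0.22 after loess correction. At Tfcp2l1 the peak chr1:118627798-118627998 read 183, 217, 218 and 223 in control against 249, 254, 317 and 233 in paused libraries. These groups did not overlap either, but the log2 change of 0.32 (SE 0.11) missed the threshold, with a limma-trend adjusted p of 0.0568. In the authors' deposited table its FDR was 0.0393.

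At Prdm14 the gene-end peak chr1:13127063-13127263 read 149.7, 106, 94.8 and 115 in control and 133, 123, 118 and 152 in paused libraries. The groups overlapped (log2 change 0.19, SE 0.14, adjusted p = 0.371 by limma-trend), and the sign turned in edgeR with TMM and after loess correction. At Sall4 the peak chr2:168767162-168767362, 61 bp beyond the upper end of the gene and inside the lncRNA gene Gm14261, read 224, 242, 220.1 and 235 in control libraries. In paused libraries it read 220.3, 254, 174 and 272, with paused replicate 3 below and replicates 2 and 4 above every control value. Its means were 230.3 ± 10.3 and 229.96 ± 43.1 (SD, n = 4; a log2 change of -0.02, SE 0.12, adjusted p = 0.928 by limma-trend). The sign of this change turned without control replicate 2 and without paused replicate 3.

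**Figure D2:**
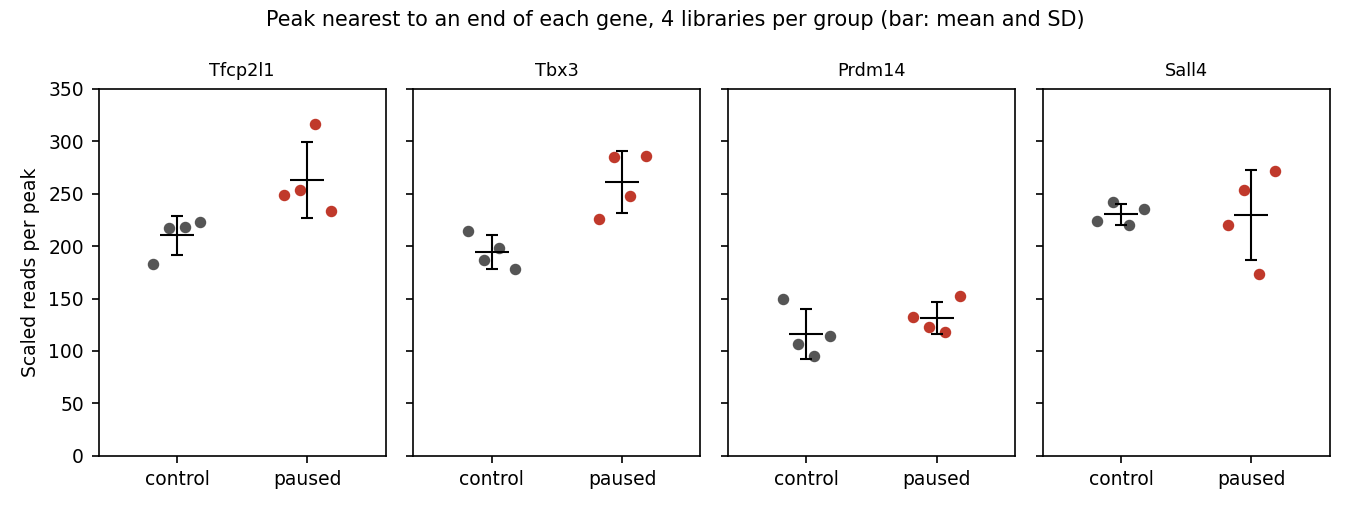
Scaled reads per library at the peak nearest to an end of each gene, 4 control (grey) and 4 paused (red) libraries per gene in the order of their replicate numbers, with mean and SD. Paused values lie above all control values at Tfcp2l1 and Tbx3 and overlap them at Prdm14 and Sall4.

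Whether these 4 peaks changed by different amounts was tested through the log2 ratio of 2 peaks within each library, which does not depend on the factor of the library except through the pseudocount. The test was chosen after the values were seen. The ratio of the Tbx3 to the Sall4 peak was -0.25 ± 0.17 in control and 0.20 ± 0.22 in paused libraries (SD, n = 4), a difference of 0.44 (SE 0.14) with no overlap between the groups. The exact two-sided permutation p was 0.0286, the smallest that 70 arrangements give, and 0.171 after Benjamini-Hochberg adjustment over the 6 pairs. The other 5 pairs differed by -0.11 to 0.34, with an exact permutation p of 0.171 or more. None of the 6 differences passed the adjusted test, for which at least 4 pairs would have had to reach the smallest p.

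Tfcp2l1 (chr1:118627923-118685168, plus strand) had its clearest rise 4955 bp beyond the end of the gene. There the peak chr1:118690023-118690223 read 81.9, 72.8, 84.7 and 82.3 in control and 127, 153, 146 and 161 in paused libraries. The lowest paused value was well above the highest control value, and the mean went from 80.4 ± 5.20 to 147 ± 14.4 (SD, n = 4; a log2 change of 0.85, SE 0.13, adjusted p = 1.85e-05 by limma-trend). This peak kept its call in all 17 other fits, with a log2 change of 0.66 to 0.92. A second rise outside the gene lay 45096 bp above it, at chr1:118730164-118730364, with 19.0, 11.9, 11.8 and 23.5 in control and 32.3, 39.4, 24.8 and 32.8 in paused libraries. The groups were apart by a small margin, and the change of 0.96 was the largest of the locus (SE 0.25, adjusted p = 0.00871 by limma-trend). This weak peak held 7 to 55 reads per library and lost its call in DESeq2.

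Inside Tfcp2l1, 3 of 14 tested peaks rose and none fell, beside 11.0% and 2.91% of all tested peaks. The peak 2484 bp from the lower end (chr1:118630307-118630507) rose from 31.1 ± 6.07 to 48.9 ± 9.64 (SD, n = 4; a log2 change of 0.63, SE 0.19, adjusted p = 0.0246 by limma-trend), with 1 control value, 39.7 in replicate 4, above the lowest paused value of 36.9. Its call was lost in 8 of 16 other fits. The next rise, 5870 bp inside (chr1:118633693-118633893), read 22.5, 27.5, 22.0 and 27.9 in control and 39.2, 42.6, 38.8 and 46.9 in paused libraries, which were all higher. It changed by 0.73 (SE 0.20, adjusted p = 0.0117 by limma-trend) and lost its call in DESeq2 alone of 16 other fits. The peak chr1:118663220-118663420, 21848 bp from the upper end, went from 20.4 ± 5.32 to 36.2 ± 7.78 (SD, n = 4; a log2 change of 0.81, adjusted p = 0.0162 by limma-trend), and 3 of 16 other fits lost it: DESeq2, and those without control replicate 4 or paused replicate 3. The 2 strongest peaks inside the gene, named after their values were seen, chr1:118642721-118642921 and chr1:118648139-118648339, had changes of 0.32 and 0.18 and did not pass (adjusted p = 0.0893 and 0.297 by limma-trend). Below the gene, 0 of 6 tested peaks passed the limma-trend test, beside 13.9% of all tested peaks. The peak chr1:118626364-118626564 had a log2 change of 0.37 with overlapping groups (adjusted p = 0.137 by limma-trend). At chr1:118622900-118623100 every paused value was below every control value (log2 change -0.36, adjusted p = 0.176 by limma-trend).

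Tbx3 (chr5:119670534-119684724) changed at its end, inside the gene and at a pair of neighbouring peaks above it. Inside the gene a second strong peak, chr5:119680047-119680247, read 128, 146, 152 and 160.2 in control and 167, 213, 172 and 214 in paused libraries. All paused values were higher (log2 change 0.38, SE 0.12, adjusted p = 0.0298 by limma-trend), and the call was lost in 7 of 17 other fits, those with TMM or loess scaling among them. The largest rises were outside. At 36286 bp above the gene, chr5:119720910-119721110 read 49.8, 47.8, 42.3 and 30.9 in control and 69.2, 86.8, 65.2 and 99.6 in paused libraries. The groups did not overlap, the mean rose 1.88-fold (log2 change 0.90, SE 0.17, adjusted p = 0.000423 by limma-trend), and all 17 other fits kept the call. Its neighbour 2993 bp further out (chr5:119723903-119724103) went from 17.6 ± 9.01 to 32.5 ± 9.10 (SD, n = 4; a log2 change of 0.96, SE 0.29, adjusted p = 0.0222 by limma-trend). Here the groups overlapped, control replicate 3 held 4 reads, and the call was lost without that library, without paused replicates 1 or 4, in DESeq2 and under TMM rescaling.

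On the other side of Tbx3, within the lncRNA genes Tbx3os1 and Gm16064, a fall and a rise lay 9984 bp apart. The peak chr5:119646993-119647193 read 22.5, 26.3, 32.2 and 25.0 in control and 10.4, 7.89, 10.9 and 16.4 in paused libraries. Every paused value was below every control value, the mean fell to 0.430 of the control mean (log2 change -1.18, SE 0.28, adjusted p = 0.00368 by limma-trend), and all 16 other fits kept the call. In paused libraries it held 5 to 14 reads. The peak chr5:119656977-119657177, nearer to the gene, went from 74.8 ± 9.56 to 103 ± 20.7 (SD, n = 4; a log2 change of 0.45, SE 0.15, adjusted p = 0.0375 by limma-trend). Paused replicate 3, at 79.1, lay among the control values, and 9 of 17 other fits lost the call.

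Prdm14 (chr1:13113428-13127163) had all of its rises below the gene, at 9310, 25161 and 28305 bp from its lower end. The nearest, chr1:13104018-13104218 inside the lncRNA gene Gm39592, read 115, 111, 86.4 and 83.8 in control and 144, 178, 132 and 186 in paused libraries. The groups did not overlap, the mean rose 1.62-fold (log2 change 0.69, SE 0.14, adjusted p = 0.000627 by limma-trend), and all 17 other fits kept the call. The strongest peak of the locus, chr1:13085023-13085223, was not at the gene but 28305 bp below it, and read 161, 201, 218 and 189.6 in control against 231, 273, 259 and 289 in paused libraries. All paused values were higher (log2 change 0.45, SE 0.11, adjusted p = 0.00641 by limma-trend), and the call was lost in DESeq2 and after loess correction. Between these 2 peaks, chr1:13088167-13088367 went from 21.4 ± 10.1 to 37.3 ± 4.19 (SD, n = 4; a log2 change of 0.88, SE 0.25, adjusted p = 0.0153 by limma-trend). Control replicate 2, at 34.6, reached the lowest paused value, and the call was lost in DESeq2, in edgeR with TMM and without control replicate 3.

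Falls were called at 2 peaks of Prdm14, 1 on each side of the gene. At 46247 bp below the gene, chr1:13067081-13067281 read 38.4, 31.1, 25.4 and 45.5 in control and 17.3, 9.46, 17.1 and 15.2 in paused libraries. The groups were apart, the mean fell to 0.421 of the control mean (log2 change -1.20, SE 0.25, adjusted p = 0.00125 by limma-trend), and all 16 other fits kept the call, although 1 paused library held 6 reads. The next peak, 2663 bp away (chr1:13069744-13069944), is stronger and had a log2 change of -0.07 (adjusted p = 0.784 by limma-trend). On the upper side, 24166 bp from the gene, chr1:13151229-13151429 lay inside the neighbouring gene Ncoa2, which encodes a nuclear receptor coactivator, and an end of Ncoa2 was the nearest gene end. It went from 35.4 ± 7.59 to 22.2 ± 4.64 (SD, n = 4; a log2 change of -0.65, SE 0.23, adjusted p = 0.0465 by limma-trend), with no overlap, and 7 of 16 other fits lost the call. In the authors' deposited table the FDR of this peak was 0.0934.

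Sall4 (chr2:168748332-168767201) had 1 called peak, 24086 bp above its upper end. The peak chr2:168791187-168791387 read 192, 158, 166 and 203 in control and 219, 233, 217 and 245 in paused libraries. The groups did not overlap (log2 change 0.35, SE 0.11, adjusted p = 0.0326 by limma-trend), but 8 of 17 other fits lost the call, among them edgeR with TMM, DESeq2, and those without control replicates 2 or 3 or paused replicates 2 or 4. The largest change of the locus that was not called was -0.65, at the weak peak chr2:168772636-168772836, with 20.7, 22.7, 15.2 and 26.4 in control and 12.7, 17.4, 15.5 and 8.20 in paused libraries. These groups overlapped (SE 0.29, adjusted p = 0.132 by limma-trend). In edgeR with TMM, Sall4 had 5 peaks called lower and 0 called higher, this one among them, with log2 changes of -0.82 to -0.49 and adjusted p from 0.0208 to 0.0443, where 5.69% of all peaks were called lower. Of its 25 tested peaks, 16 had a negative and 9 a positive log2 change, and 4 lay above the median change of all peaks. Over all tested peaks of the series, 49364 of 127402 had a negative change. An end of Sall4 was the nearest gene end for 13 of the 25 peaks, and an end of the neighbouring gene Atp9a for the others. Which gene these peaks act on was not tested.

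**Figure D3:**
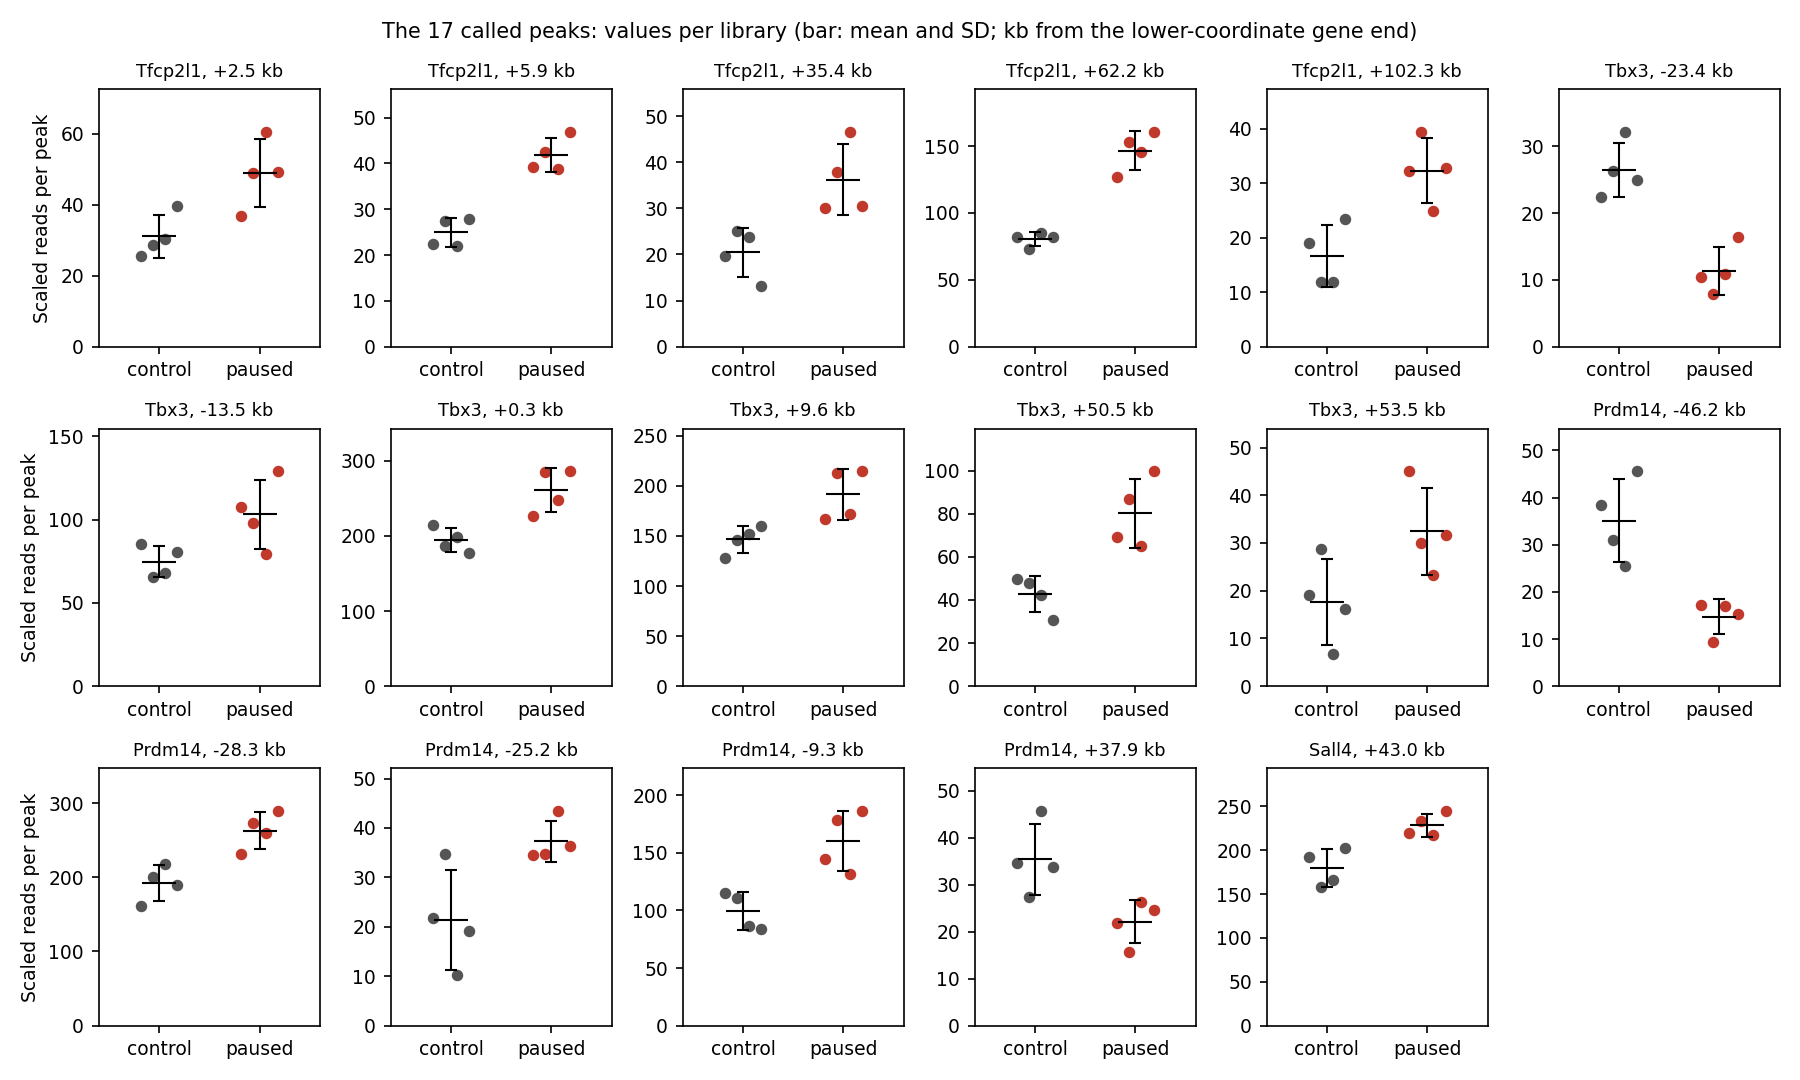
Scaled reads per library at the 17 called peaks, named by gene and distance in kb from the lower-coordinate gene end, 4 control (grey) and 4 paused (red) libraries each, with mean and SD. The 3 falls, at Tbx3 and Prdm14, are weak peaks, whereas rises occur from weak peaks near 17 to strong peaks near 194 in control libraries.

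The calls were also counted by the strength of the peak, as a description. At or above the median strength of all tested peaks, 9 of 45 peaks rose and 0 fell by limma-trend, beside 16.9% and 1.86% of all peaks of that strength. Below it, 5 of 50 rose and 3 fell, beside 5.03% and 3.95%. With 3 falls in all, no difference in strength between rises and falls was tested. Without regard to the test, the groups did not overlap at 18 of the 95 tested peaks, 13 of them higher and 5 lower in paused libraries, beside 17.4% of all tested peaks (13.0% higher and 4.36% lower). Of all tested peaks in the series, taken in 10 classes of strength, the weakest class had a median change of -0.20 and the strongest one of 0.20.

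**Figure D4:**
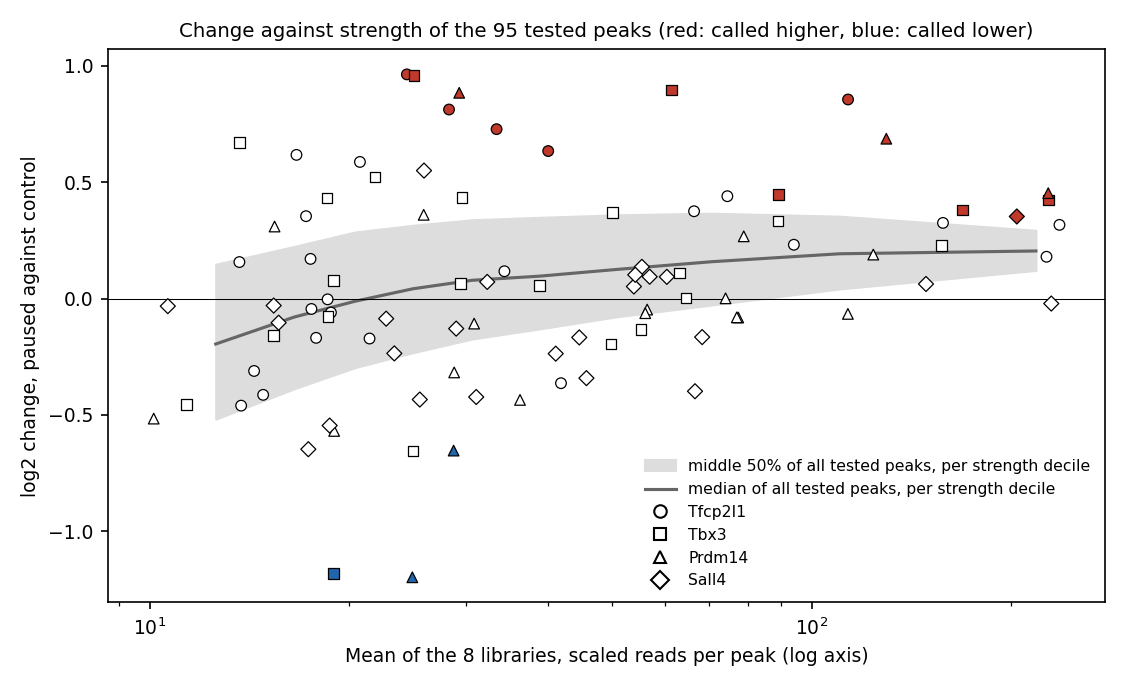
Log2 change of the 95 tested peaks of the 4 loci against mean value (log axis), with the median and the middle 50% of all tested peaks of the series in 10 classes of strength. The called rises lie above the grey band at each strength, and the 3 called falls lie below it among weak peaks.

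Summed over all its peaks, each locus gave 1 value per library, reported here as a description. The Tfcp2l1 sum was 1245, 1233, 1319 and 1368 in control and 1443, 1584, 1623 and 1714 in paused libraries, 23.2% more on average and without overlap. The Tbx3 sum was 1238 ± 55.1 in control and 1485 ± 175 in paused libraries (SD, n = 4), and paused replicate 3, at 1279, lay among the control values. The Prdm14 sum went from 1233 ± 55.2 to 1332 ± 82.6, and the Sall4 sum from 1399 ± 89.4 to 1397 ± 109.7 (SD, n = 4). The sum over all peaks of the series was 11.5% higher in paused libraries. As a share of the reads in peaks, which takes out that difference, Tfcp2l1 was 10.4% and Tbx3 7.63% higher, Prdm14 was lower (-3.10%) and Sall4 was lower (-10.4%). Only the Tfcp2l1 groups stayed apart on that scale, and by a very small margin. The highest control share there was 0.01787% (replicate 4) and the lowest paused share 0.01790% (replicate 1).

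To place the 4 loci in their network, 20 other genes of pluripotency regulators were taken with the same 50 kb windows. Their 408 peaks included 386 tested ones, of which 47 rose and 11 fell, with a median log2 change of 0.10. Rises were most numerous at Esrrb (8 of 44), Zfp42 (7 of 20) and Gbx2 (6 of 17), and no peak passed at Pou5f1 (of 15) or Sox2 (of 21). At Tcf7l1, which encodes a repressor of the network, 0 of 57 peaks rose and 4 fell. The share of calls, 15.0%, lay near the 13.9% of all peaks, as did the 17.9% of the 4 loci. After loess correction these 20 genes had 17 of 386 peaks called higher and 18 lower, beside 5.1% and 3.5% of all peaks. The number called was 37, 35 and 34 without control replicate 1, paused replicate 2 and paused replicate 4. Over all peaks it was 12959, 13072 and 11570 in those fits, in place of 17660.

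The number of other genes whose summed values followed those of a locus differed between the 4 loci. Pearson's r over the 8 libraries was 0.995 between Tfcp2l1 and Oxnad1 and 0.994 for both Clptm1 and Dmac1, but 2789 of 16808 genes reached an r of 0.9 with Tfcp2l1. Tbx3 was most like Mettl7a1, Atf1 and Tmprss12 (r of 0.991, 0.988 and 0.986), all 3 on chromosome 15 with windows that share peaks, and 197 genes reached 0.9. Prdm14 was most like Acot13, N4bp2 and Zdhhc12 (0.977, 0.975 and 0.970, with 180 genes at 0.9), and Sall4 was most like Hoxb2, 5730455P16Rik and Gadl1 (0.923, 0.913 and 0.913, with 5 genes at 0.9). The points share depth and scaling factors, and these values are a description.

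Outside the limit of 50 kb, 1 peak was examined per locus, not 1 on each side, and only that at Tbx3 was called. Just outside the limit, the peak 56494 bp from Tbx3 (chr5:119613940-119614140) went from 24.2 ± 9.17 to 40.5 ± 3.82 (SD, n = 4) and was called higher (adjusted p = 0.0154 by limma-trend). The peak 50338 bp from Sall4 (chr2:168697894-168698094), at 35.7 ± 7.33 in control and 23.1 ± 6.32 in paused libraries (SD, n = 4), was not called (adjusted p = 0.0601 by limma-trend). At Tfcp2l1 and Prdm14 the next peaks outside, 63133 and 51621 bp away, had log2 changes of -0.08 and 0.17. The outermost peak inside the limit was the called one 45096 bp above Tfcp2l1 and, at the others, peaks 44079 bp from Tbx3, 48855 bp from Prdm14 and 45858 bp from Sall4 with changes of 0.07, -0.32 and 0.09.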

How the data were processed

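ATAC-seq was deposited for 8 libraries of E14 cells, sequenced as paired reads of 150 bp, per the labels' protocols. The submitters' processing notes name FastQC, Trim Galore, Bowtie2 2.4.1, MACS3 3.0.3, DiffBind 3.16.0 and build mm10, with no role for each. The deposited table gives, for 134407 peaks of 201 bp, a normalised signal per library. It also gives the authors' own comparison, with a log2 fold and p-value and FDR per peak, quoted under that name. In each of the 8 columns 100% of values were a whole number of reads, within 0.1 read, divided by 1 factor. A factor that differs between groups moves all changes together, and the TMM alternatives bear on this.

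Peaks whose mean value reached 10 were tested with limma-trend (limma 3.58.1, R 4.3.3) on log2(value + 1), 4 control against 4 paused libraries, with Benjamini-Hochberg adjustment over all 127402 and a threshold of 0.05. Fold changes on this scale understate those of weak peaks. The median library held 18 to 91 reads per peak, and 3 reads were worth 1.04 to 5.08. Alternatives were a pseudocount of 0.1, no filter, a mean of at least 50 reads, TMM rescaling and loess on strength (span 0.3). Others were edgeR 4.0.16 on recovered reads, DESeq2 1.42.0, a replicate block, each library left out, and windows of 20 kb or by nearest gene end. By nearest gene end, 27 of 32 peaks remained at Tfcp2l1, 24 of 24 at Tbx3, 18 of 22 at Prdm14 and 13 of 25 at Sall4.

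Gene spans came from a RefSeq table of GRCm38.p6. The peaks named at each locus were the one nearest to the gene end, the strongest, up to 6 called peaks with the smallest adjusted p and the tested peak with the largest change. A few neighbours were named after their values were seen. The members and all lists were chosen with earlier results of these data known. The pair tests of gene-end peaks, the TATAAA search and the alternatives for the other regulators were added after seeing the data. Columns of other samples were not present in the table.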

Additional observations from a re-analysis of the deposited data

Results flagged for a closer look

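At the Tfcp2l1 start-site peak (chr1:118627798-118627998) control replicate 1 read 183 while the other control libraries read 217 to 223, and its gap to them made up 0.853 of the range of the group, above Dixon's 95% critical value for 4 samples. It was 1 of 50 groups tested, and chance marks about 1 in 20 groups. Control replicate 1 was also the deepest library, and the part of depth in this value was not tested. Without it, the log2 change of the peak was 0.25 (limma-trend adjusted p = 0.185) in place of 0.32.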

How the results depend on the processing

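No called peak named here changed sign under any of up to 17 other fits, and 5 of the 17 kept their call in all of them: those 4955 bp above Tfcp2l1, 23441 bp below and 36286 bp above Tbx3, and 46247 and 9310 bp below Prdm14. Peaks called higher at the 4 loci (14) numbered 3 in DESeq2, 8 under TMM rescaling, 9 in edgeR with TMM, 8 after loess correction, 9 with a mean of at least 50 reads and 8 within 20 kb. In DESeq2 these were 3 of 97 tested peaks, beside 4031 of 129195 over the series. With at least 50 reads they were 9 of 37, beside 9696 of 44882, and 791 of the 44882 were called lower. Peaks called lower (3) numbered 9 in edgeR with TMM, 0 with at least 50 reads and 0 within 20 kb. At Tfcp2l1 (5 calls) there were 1 in DESeq2, 8 in edgeR with the deposited factors and 2 with at least 50 reads. In edgeR with the deposited factors, 20732 of 120359 peaks were called over the series. At Tbx3 (6) there were 2 in DESeq2, 2 under TMM rescaling, 3 after loess correction and 3 within 20 kb. At Prdm14 (5) there were 2 in DESeq2, 2 with at least 50 reads and 1 within 20 kb, and at Sall4 (1) 0 in DESeq2, 5 in edgeR with TMM and 0 within 20 kb. The other regulators (58) had 12, 36 and 35 calls in DESeq2, under TMM rescaling and after loess correction. Over all peaks those fits made 5862, 12919 and 10956 calls, in place of 17660. Fewer peaks enter at 20 kb or at 50 reads; for the other moves the cause was not tested. The log2 ratio of sums was 0.14 as a share of reads and 0.20 with TMM at Tfcp2l1 (0.30 as deposited), 0.11 as a share at Tbx3 (0.26), -0.045 as a share and 0.0097 with TMM at Prdm14 (0.11), and -0.16 as a share at Sall4 (0.00).

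With 1 library left out in turn, calls ranged from 8 to 15 higher and 2 to 3 lower, 4 to 6 at Tfcp2l1, 2 to 6 at Tbx3, 3 to 5 at Prdm14, 0 to 1 at Sall4 and 34 to 50 at the other regulators. Over all peaks the calls ranged from 8963 to 12696 higher and from 2301 to 3893 lower. The log2 ratios of sums ranged from 0.26 to 0.35 at Tfcp2l1, 0.21 to 0.33 at Tbx3, 0.08 to 0.14 at Prdm14 and -0.04 to 0.05 at Sall4. Signs turned at the Prdm14 gene-end peak (edgeR with TMM -0.0078, loess -0.012) and at that of Sall4 (0.0055 in edgeR with deposited factors, 0.0034 without control replicate 2, and -0.11 to 0.11 over the libraries left out, highest without paused replicate 3). The difference between the Tfcp2l1 and Prdm14 gene-end peaks ranged from -0.066 without control replicate 1 to 0.25, and was -0.014 without paused replicate 3.

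Same-numbered libraries correlated in their deviations from the group means by 0.0790, 0.0358, 0.133 and 0.0395. Libraries with different numbers correlated by -0.105 to 0.0703, and not every library correlated best with its own number. Whether the numbers pair the samples was not tested. With a replicate block, 17 peaks were called higher and 3 lower at the 4 loci, 8 at Tfcp2l1, and over all 127402 tested peaks calls went from 17660 to 21994 (17371 higher and 4623 lower). At 5 to 15 reads per paused library, as in the largest falls at Tbx3 and Prdm14, counting error limits each value.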
